A study of Mus musculus with 66 samples.

Results

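BXD strains with high and with low myelin gene expression after saline, 9 strains each, were compared for the other genes that go with myelin. The strains were chosen by measured levels of 5 myelin genes in these same saline arrays. The BXD strains are inbred lines derived from crosses of the progenitors C57BL/6J (spelled C57BL6/J in the strain labels) and DBA/2J, so each line carries its own fixed mixture of the 2 progenitor genomes. The 27 BXD strains with a saline array of medial prefrontal cortex were ranked by a myelin score, the mean log2 level of Mbp, Mobp, Mal, Mog and Mag after each gene was centred on the 27 arrays. The 9 strains with the highest score formed the high set (BXD36, BXD06, BXD21, BXD42, BXD05, BXD23, BXD12, BXD20 and BXD28, in falling order). The 9 with the lowest score formed the low set (BXD33, BXD19, BXD01, BXD02, BXD32, BXD15, BXD27, BXD22 and BXD39, in falling order). These 18 arrays are part of a series of 66. The series also holds the other 9 saline BXD arrays, 27 ethanol arrays of the same strains, and 3 arrays per treatment of each progenitor. All animals were males aged 10 to 12 weeks, and every array measured RNA pooled from 4 to 5 mice. They were given saline or 1.8 g/kg ethanol by intraperitoneal injection, and tissue was taken 4 hours later. In between, every mouse, saline controls included, was restrained for 15 min and then explored a light-dark box for 10 min, so none of the groups is an undisturbed baseline. Each BXD strain had 1 array per treatment, so a value for 1 strain and treatment has no replicate.

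Myelin is the membrane sheath that oligodendrocytes wrap around axons, and it speeds the conduction of action potentials. Oligodendrocytes arise from precursor cells that carry Pdgfra and Cspg4. Their maturation is driven by transcription factors such as Sox10 and Myrf, and ends with the production of large amounts of myelin protein and of galactolipids. Mbp compacts the cytoplasmic faces of the sheath, and Mobp is another abundant protein of compact myelin. Mog sits on the outermost lamella, Mag faces the axon on the innermost one, and Mal is a proteolipid of lipid rafts in myelin. In the frontal cortex of the mouse, myelinated fibres are denser in the deep layers than in the upper ones and are densest in the white matter below.

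The start regions of 3 of the genes are shown because these genes carry the comparison in different ways. Mobp had the largest saline difference of the 5 score genes, Cnp was the only other myelin gene whose saline arrays did not overlap between the sets, and Ugt8a makes the galactolipid of myelin. The regions run from 250 bases before to 50 bases after the start of transcription and come from RefSeq, assembly GRCm38.p6. They were searched on both strands for ACAAAG and ACAATG, core letters bound by Sox proteins such as Sox10, and matches are in capitals. The motifs differ in a single letter. CTTTGT is ACAAAG on the other strand.
Mobp: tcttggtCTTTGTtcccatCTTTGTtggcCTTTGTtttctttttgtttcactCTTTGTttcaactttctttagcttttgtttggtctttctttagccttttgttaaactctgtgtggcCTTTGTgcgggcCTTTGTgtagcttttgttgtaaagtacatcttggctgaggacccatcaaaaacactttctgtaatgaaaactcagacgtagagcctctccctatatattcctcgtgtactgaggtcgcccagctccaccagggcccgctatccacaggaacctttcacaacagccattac
Cnp: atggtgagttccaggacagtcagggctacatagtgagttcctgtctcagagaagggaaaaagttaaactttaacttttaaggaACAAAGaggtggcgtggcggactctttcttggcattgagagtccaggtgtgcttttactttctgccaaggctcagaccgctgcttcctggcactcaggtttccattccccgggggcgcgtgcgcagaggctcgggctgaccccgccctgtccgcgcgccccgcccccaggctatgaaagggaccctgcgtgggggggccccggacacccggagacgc
Ugt8a: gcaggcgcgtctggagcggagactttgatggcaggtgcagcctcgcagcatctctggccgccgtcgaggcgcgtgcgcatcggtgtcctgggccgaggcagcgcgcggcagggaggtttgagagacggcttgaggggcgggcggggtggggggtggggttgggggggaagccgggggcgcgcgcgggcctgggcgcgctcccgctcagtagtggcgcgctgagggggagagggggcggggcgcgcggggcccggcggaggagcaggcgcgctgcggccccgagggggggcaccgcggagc
The Mobp region (chr9:120149492-120149791, plus strand) held 6 matches, the Cnp region (chr11:100574689-100574988, plus strand) held 1 and the Ugt8a region (chr3:125938603-125938902, minus strand) held 0. Of all 32851 regions of this length in the table, 28.6% had at least 1 match, and no region of another gene had more than 5. Regions were used for 19 of the 24 genes formed by the 5 score genes and the 19 genes described further on, and 12 of their 29 regions (41.4%) held a match. The choice of these genes and letters was made with the values and sequences in view. The matches are a description of the letters, not of binding.

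Levels below are log2 values on which an increase of 1 is a doubling. In the saline arrays the score ran from 0.13 to 0.68 in the high set (median 0.22) and from -0.55 to -0.09 in the low set (median -0.25). Just outside the sets lay BXD11 at 0.03 and BXD09 at -0.09, next to BXD28 at 0.13 and BXD33 at -0.09, so the lower boundary falls between nearly equal strains. These values chose the strains and are given as a description. The score genes varied together over the 27 saline arrays, with Pearson correlations between pairs of them from 0.58 to 0.87.

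**Figure D1:**
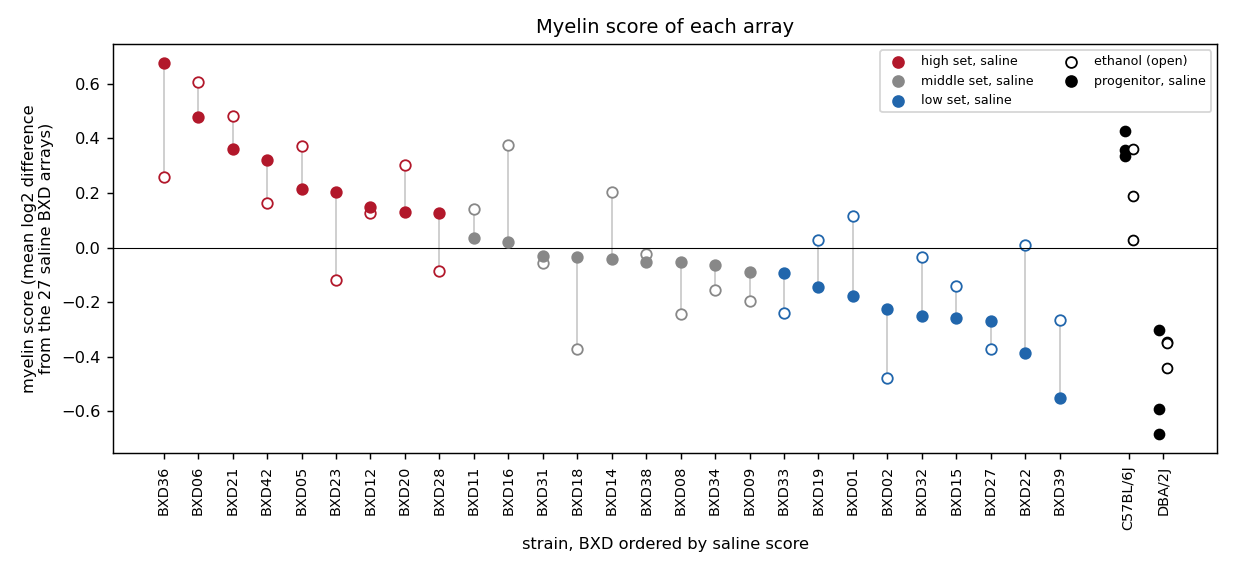
Myelin score (mean log2 difference from the 27 saline BXD arrays) of every array, with BXD strains ordered by their saline score and the progenitors at the right; filled points are saline arrays, open points ethanol arrays, and lines join the 2 arrays of a strain. The C57BL/6J saline arrays lie between 0.33 and 0.43 and the DBA/2J saline arrays between -0.68 and -0.30.

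Of the score genes, Mobp differed most between the sets in saline. Its 9 high arrays ran from 9.47 to 10.03 (median 9.61) and its 9 low arrays from 8.39 to 9.25 (median 9.08), a mean difference of 0.70. Mog ran from 5.90 to 6.84 (median 6.12) against 5.41 to 5.80 (median 5.56), a difference of 0.67. For Mbp, the range was 12.34 to 12.84 in the high set (median 12.55) and 11.74 to 12.27 in the low set (median 12.12). Mag ran from 7.92 to 8.34 (median 8.02) and from 7.36 to 7.81 (median 7.63). None of these 4 genes overlapped between the sets. Mal did overlap, from 8.46 to 9.13 in the high set and from 8.11 to 8.73 in the low set, where BXD01 reached 8.73.

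Genes outside the score were looked at in the same saline arrays, again as a description because the same arrays chose the strains. Of the 13196 genes tested, 6 had 9 high arrays that all lay above the 9 low arrays (0.0455%), and 0 had the reverse (0%). They were Mobp, Mog, Mbp and Mag of the score, Cnp and Lypd6b. Cnp encodes a phosphodiesterase of the myelin sheath that keeps cytoplasmic channels open. It ran from 10.88 to 11.28 in the high set (median 11.09) and from 10.46 to 10.81 in the low set (median 10.63), a difference of 0.47. Lypd6b, a Ly6-domain protein related to modulators of nicotinic receptors, ran from 7.16 to 7.41 (median 7.32) against 6.83 to 7.11 (median 6.99), a difference of 0.31. In the ethanol arrays its difference was 0.13 (SE 0.06). Of the measured genes on a list of 44 myelin and mature oligodendrocyte genes, 33 of 37 had a positive saline difference, with a median of 0.30, against 58.4% and a median of 0.02 over all genes. That list includes the 5 score genes. Since each array measures a tissue extract, fewer oligodendrocytes and less myelin RNA per oligodendrocyte cannot be told apart.

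The ethanol arrays of the same strains came from other pools of mice and took no part in the choice, so they show whether the ordering of strains was seen again. The score in the ethanol arrays ran from -0.12 to 0.61 in the high set (median 0.26) and from -0.48 to 0.12 in the low set (median -0.14). The sets therefore overlapped, and 7 of the 9 high strains lay above every low strain. BXD23 at -0.12 and BXD28 at -0.09 were the high strains within the low range. The means were 0.23 ± 0.24 (SD, n = 9) and -0.15 ± 0.20 (SD, n = 9), a difference of 0.39 (SE 0.10) (exact permutation test, two-sided, p = 0.0022). The 9 strains between the sets averaged -0.04 ± 0.24 (SD, n = 9).

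**Figure D2:**
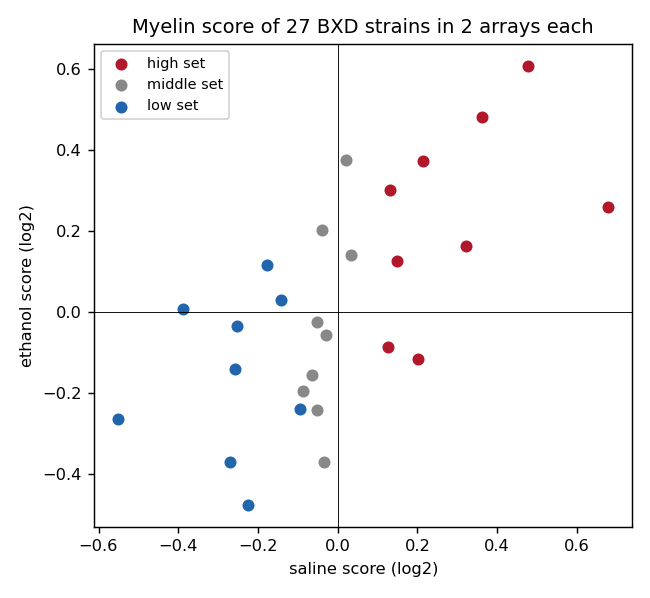
Saline score (log2, horizontal) against ethanol score (log2, vertical) of the 27 BXD strains, 1 point per strain, coloured by the set that the saline score defined. The points run from lower left to upper right with Pearson r = 0.66.

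Over all 27 strains the saline and ethanol scores had a Pearson r of 0.66 (permutation p = 0.00023) and a Spearman rho of 0.66 (permutation p = 0.00033), over 100000 relabellings, two-sided. Without BXD06 and BXD36, the strains farthest from the median saline score, r was 0.59 (permutation p = 0.0021). BXD36 had the highest saline score at 0.68 and ranked number 6 in ethanol at 0.26. BXD02 was lowest in ethanol at -0.48, against -0.22 in saline. The mean ethanol minus saline score was -0.06 in the high set (lower after ethanol in 5 of 9 strains) and 0.11 in the low set (lower in 3 of 9). These last means share their saline arrays with the choice of the sets and were not tested.

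Each on its own, 4 of the 5 score genes kept a strain order across treatments, with p-values adjusted over the 5 relations. Mobp had r = 0.80 (rho 0.86, permutation adjusted p = 5e-05 for both, from a raw p of 1e-05, the smallest the relabellings can give). Mbp had r = 0.70 (rho 0.73, permutation adjusted p = 0.0002 and 0.0001). Mal had r = 0.67 (rho 0.64) and Mag r = 0.60 (rho 0.59), each with permutation adjusted p-values of at most 0.0019. For these 4 genes r stayed between 0.56 and 0.77 without the 2 strains farthest from the gene's saline median. Mog was weaker, with r = 0.41 (permutation adjusted p = 0.032) and rho = 0.29 (permutation adjusted p = 0.14), and its r was 0.27 without its 2 farthest strains. The fall in r without the farthest strains was seen for the other 4 genes too, and was not tested. Its lowest BXD array, BXD02 after ethanol, lay at 5.09, close to the level of 5.10 below which probe sets were removed by their mean.

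**Figure D3:**
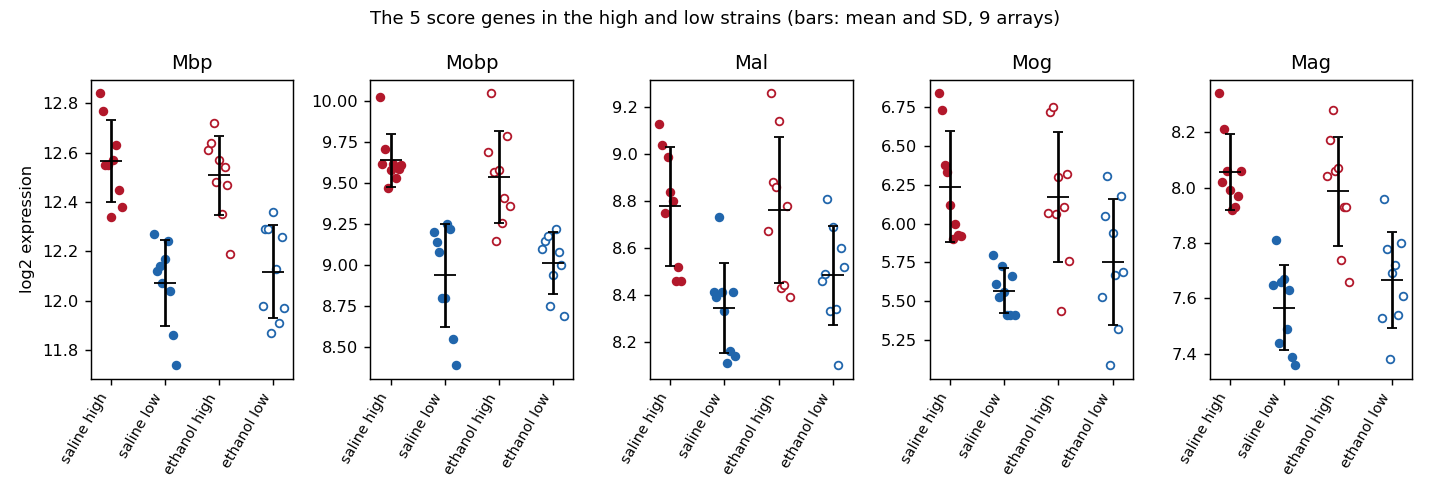
Log2 expression of the 5 score genes in the high (red) and low (blue) strains, with 9 saline arrays (filled) and 9 ethanol arrays (open) per set; black bars give the mean and SD. In saline the sets do not overlap for Mbp, Mobp, Mog and Mag, and overlap for Mal.

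Both progenitors stood toward the ends of the BXD range. The 3 saline arrays of C57BL/6J had scores of 0.43, 0.33 and 0.36, and those of DBA/2J had -0.68, -0.59 and -0.30. After ethanol the values were 0.36, 0.19 and 0.03 in C57BL/6J and -0.44, -0.35 and -0.35 in DBA/2J. No array of one strain overlapped the other. The mean difference, DBA/2J minus C57BL/6J, was -0.74 (exact permutation test within treatment, two-sided, p = 0.005, the smallest that 400 arrangements allow), with -0.90 in saline and -0.57 in ethanol. The difference between those 2 values was 0.33 (exact permutation p = 0.065). Of the 27 saline BXD arrays, 24 lay between the progenitors' saline means, and 2 lay above the C57BL/6J mean of 0.37.

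The strain gap in the score was led by Mal. Its saline values were 9.07, 9.18 and 9.15 in C57BL/6J and 7.74, 7.69 and 7.90 in DBA/2J, and all 3 DBA/2J values were below the lowest saline BXD array at 8.11. Mag differed least, with 8.07, 8.06 and 8.04 against 7.57, 7.43 and 7.68. A score made of the other 32 measured myelin genes differed by -0.18, again lower in DBA/2J (exact permutation p = 0.005), against -0.74 for the 5 genes. In the ethanol arrays of the BXD sets the same 32-gene score differed by 0.17 (exact permutation p = 0.0026) against 0.39.

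No single gene passed the threshold (limma with Benjamini-Hochberg adjustment, adjusted p below 0.05) when the ethanol arrays of the high and low strains were compared gene by gene. The count was 0 of 13196 (0%), with a lowest adjusted p of 0.21. At an unadjusted limma p below 0.05 there were 564 genes, 193 of them higher in the high set (1.46%) and 371 lower. The smallest unadjusted p-values among positive differences belonged to Mobp (0.53, SE 0.10), Bcas1 (0.37, SE 0.07) and Mbp (0.39, SE 0.08), all with an adjusted limma p of 0.21. Bcas1 encodes a protein of newly myelinating oligodendrocytes. In the ethanol arrays it ran from 9.34 to 9.93 in the high strains (median 9.60) and from 8.97 to 9.44 in the low strains (median 9.29). Cnp had a difference of 0.33 (SE 0.07, adjusted limma p = 0.22).

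Other settings moved this count off 0. With every probe set tested in place of 1 per gene, 5 probe sets of Mbp and Mobp passed. With all 27 ethanol arrays set against the saline score of their strain, 4 genes passed, namely Bcas1 (adjusted limma p = 0.0018), Mbp and Mobp (both 0.038) and Cnp (0.050).

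On the negative side, Ypel1 had the smallest p. Its ethanol arrays ran from 7.96 to 8.33 in the high strains (median 8.20) and from 8.32 to 8.51 in the low strains (median 8.44), a difference of -0.25 (SE 0.05, adjusted limma p = 0.21). In saline its difference was -0.19. Alg5, an enzyme of dolichol-linked glycosylation, differed by -0.26 (SE 0.06) in ethanol and by -0.01 in saline. Ak5, a neuronal adenylate kinase, differed by -0.18 (SE 0.04) and -0.10. Neither passed, with an adjusted limma p of 0.67 for both.

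Of the myelin list, 34 of 37 members had a positive ethanol difference between the sets (median 0.18) against 42.6% of all genes (median -0.01). Of these members, 20 had an unadjusted limma p below 0.05 with higher levels in the high set, against 1.46% of all genes, and 0 with lower levels, against 371 of all 13196 genes. The 5 score genes are among the members.

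The genes that follow myelin were then sought with each ethanol array's own score as a continuous measure over 27 arrays. The score genes were left out, and the slope is the log2 change of a gene per unit of the log2 score. Of 13191 genes, 19 passed with a positive slope (0.144%) and 0 with a negative one (limma with Benjamini-Hochberg adjustment), where 369 had a negative slope and 416 a positive slope (3.15%) at an unadjusted limma p below 0.05. Of these 19, 14 are on the myelin list. Their slopes ran from 0.40 to 0.96 (median 0.63) and their correlations with the score from 0.68 to 0.90. Gene and score come from the same arrays, so array-wide differences enter both. The mean SD of the array values was 2.117 in the high and 2.125 in the low ethanol arrays. With the array SD as a covariate 20 genes passed, all 19 included. Array SDs hardly differed, so array-wide differences of other kinds were not tested by this covariate.

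**Figure D4:**
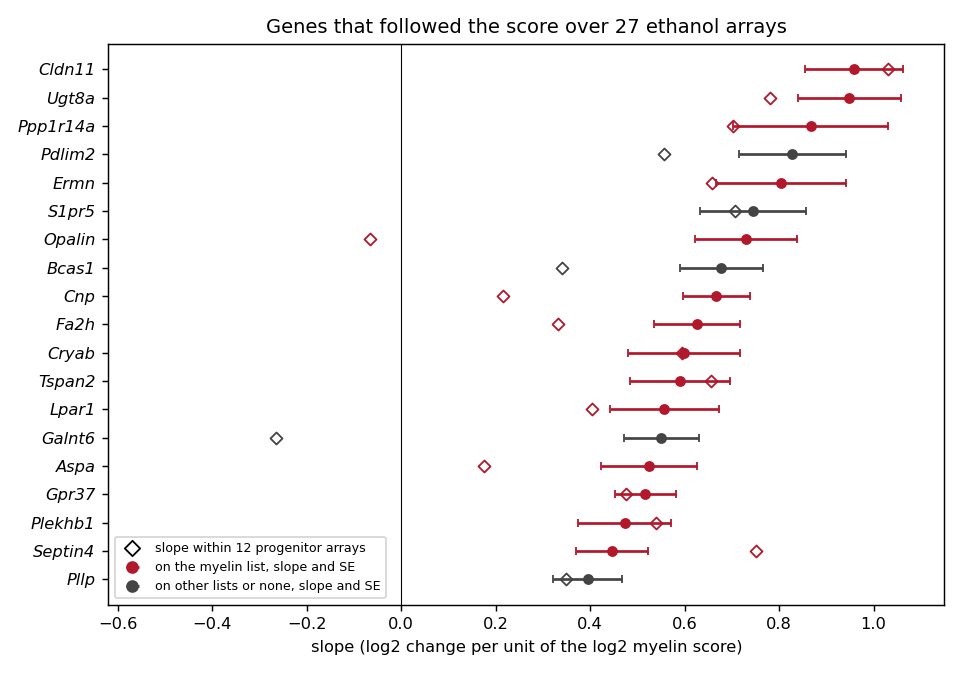
Slopes (log2 per unit of the log2 score) of the 19 genes past the threshold over 27 ethanol BXD arrays, as filled points with their SE, and slopes within the 12 progenitor arrays as open diamonds. All 19 filled points are above 0, and the diamonds of Opalin (-0.07) and Galnt6 (-0.26) are below it.

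Structural genes of the sheath led this group. Cnp had a slope of 0.67 (SE 0.07, adjusted limma p = 1.8e-06). In the ethanol arrays Cnp ran from 10.79 to 11.29 in the high set (median 11.06) and from 10.48 to 10.93 in the low set (median 10.72). Cldn11, the claudin of the tight junctions that seal the sheath, had the steepest slope at 0.96 (SE 0.10, adjusted limma p = 1.8e-06). Its ethanol arrays ran from 7.57 to 8.43 (median 7.90) in the high set and from 6.95 to 8.00 (median 7.46) in the low set, where BXD01 was highest at 8.00. Its saline arrays overlapped more, since BXD20 of the high set lay at 7.10, below every low strain.

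Other membrane and cytoskeletal genes of mature oligodendrocytes were among the 19 as well. Tspan2, a tetraspanin of myelin, had a slope of 0.59 (SE 0.11), and Opalin, a sialylated membrane protein of the sheath, 0.73 (SE 0.11). Ermn, an actin-binding protein of late oligodendrocytes, had a slope of 0.80 (SE 0.14), and its ethanol arrays ran from 6.42 to 7.12 in the high set against 6.15 to 6.62 in the low set. Septin4, a septin filament protein of the innermost myelin, had 0.45 (SE 0.08). Ppp1r14a, an inhibitor of myosin phosphatase, had 0.87 (SE 0.16) and the largest saline difference of the 19 genes at 0.58. Cryab, a small heat shock protein, had 0.60 (SE 0.12) and Plekhb1, a pleckstrin homology protein, 0.47 (SE 0.10).

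Genes on a list for myelin lipids were next. Ugt8a, the galactosyltransferase that makes galactosylceramide, had a slope of 0.95 (SE 0.11, adjusted limma p = 4.6e-06). Its ethanol arrays ran from 7.32 to 8.29 in the high set (median 7.89) and from 7.11 to 7.62 in the low set (median 7.44), with BXD21 highest and BXD23 lowest of the high strains. Fa2h, which adds the 2-hydroxyl group to fatty acids of these galactolipids, had 0.63 (SE 0.09, adjusted limma p = 0.00019). Aspa, which releases acetate from N-acetylaspartate for lipid synthesis, had 0.53 (SE 0.10). Pllp, plasmolipin, a membrane protein placed on the same list, had 0.40 (SE 0.07). On the list of 17 myelin lipid genes these 4 passed, against 0.144% of all genes. A positive slope was found for 10, against 49% of all genes, and the median slope was 0.12. Ugt8a, Fa2h and Aspa are also on the myelin list.

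The rest of the 19 genes have other roles. Gpr37, an orphan receptor of differentiating oligodendrocytes, had a slope of 0.52 (SE 0.06, adjusted limma p = 1.5e-05). S1pr5, the sphingosine-1-phosphate receptor of the oligodendrocyte lineage, had 0.75 (SE 0.11) and Lpar1, a lysophosphatidic acid receptor, 0.56 (SE 0.11). Lpar1 stood out among the 19 genes because its saline difference between the sets was -0.01, while the other 18 were positive. Its other probe sets had saline differences of 0.09 and 0.05, so this holds for its brightest probe set only. S1pr5 is on none of the lists, and so are Pdlim2, a PDZ and LIM domain protein with a slope of 0.83 (SE 0.11), and Galnt6, which starts mucin-type O-glycans, with 0.55 (SE 0.08). Bcas1 had 0.68 (SE 0.09). Pdlim2 ran from 6.28 to 6.88 in the ethanol arrays of the high set (median 6.46) and from 5.67 to 6.72 in those of the low set (median 6.15).

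The calls at the weak end changed when strains were left out. Without BXD33 and the higher-numbered strains, 14 of the 19 passed, and Pllp, Aspa, Cryab, Lpar1 and Plekhb1 did not (limma adjusted p from 0.090 to 0.42). That fit also had fewer arrays, and the part of these particular strains was not tested. Leaving out 1 strain at a time gave 16 to 21 genes, and Lpar1 and Plekhb1 each passed in 20 of 27 such fits. The other probe sets of the 24 score and called genes measure those same genes in the same ethanol arrays. A positive correlation with the score was therefore likely beforehand and is no further test of the calls. It was seen for 22 of 22 over 11 genes, with r from 0.06 to 0.92 (median 0.73). The lowest belonged to a probe set of Mbp. For Galnt6, another probe set with a mean of 5.711, against 5.719 for the one used, had r = 0.26 against 0.82. Its saline difference between the sets was 0.035 against 0.275.

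The slope over arrays mixes differences between strains with differences between pools of a strain. With the strain's saline score as a second covariate 13 genes passed, 9 of them among the 19. That saline score comes from an unreplicated array, so the covariate can take out differences between strains only in part. The slopes that remain can still mix strain and pool differences, and their shares were not tested. With Cnp alone as the score 14 genes passed, 13 of them among the 19. With the 32 other myelin genes as the score, which removes those genes from the test, 5 passed, all of them among the 19.

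The 12 progenitor arrays gave a further set outside the choice, with strain and treatment as covariates. There 0 of 13191 genes passed (0%, limma, lowest adjusted p = 0.32), while 1482 had an unadjusted limma p below 0.05, 818 positive and 664 negative. Only 7 residual degrees of freedom were left. Of the 19 genes, 17 had a positive slope within the progenitor groups, against 60.4% of all genes. An unadjusted limma p below 0.05 was found for 3 of the 19, all positive. That stands beside 818 positive genes at that p among all 13191, so it does not set the 3 apart. Cldn11 had a progenitor slope of 1.03 (SE 0.32), Septin4 0.75 (SE 0.28) and Tspan2 0.66 (SE 0.27). In saline, 16 of the 19 had a lower mean in DBA/2J than in C57BL/6J, against 45.2% of all genes. After ethanol, 15 of the 19 did, against 40.8%. Tspan2 had saline means of 8.54 in C57BL/6J and 7.77 in DBA/2J, while Lpar1 had 7.66 and 7.67.

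The lists of lineage transcription factors and of precursor genes had smaller median slopes than the myelin list. Myrf is on both the transcription factor list and the myelin list. Of 8 measured lineage transcription factors 0 passed, 7 had a positive slope (median 0.25) and 6 had one at an unadjusted limma p below 0.05. Over all genes 0.144% passed with a positive slope, 49% had a positive slope and 3.15% had one at that p. Sox10, which activates myelin genes, had a slope of 0.23 (SE 0.09) and Olig1 0.22 (SE 0.09), both with an adjusted limma p of 0.76. Myrf, the regulator of terminal differentiation, had 0.26 (SE 0.09, adjusted limma p = 0.75), and its saline arrays ran from 6.69 to 7.05 in the high set (median 6.81) and from 6.10 to 6.84 in the low set (median 6.67). Olig2 differed by 0.03 in saline and 0.04 in ethanol between the sets, with a slope of 0.28 (SE 0.12, adjusted limma p = 0.77). Of 11 measured precursor genes only Bcas1 passed. A positive slope was found for 8 of them (median 0.16), against 49% of all genes. At an unadjusted limma p below 0.05, 3 had a positive slope, against 3.15% of all genes. Besides Bcas1 these were Matn4, with 0.35 (SE 0.13), and Cacng4, with 0.31 (SE 0.12), both with an adjusted limma p of 0.76. The defining precursor gene Pdgfra ran from 8.32 to 8.88 in the saline high set (median 8.43) and from 8.16 to 8.86 in the low set (median 8.64), and its slope was 0.002 (SE 0.09). Cspg4 had a slope of 0.16 (SE 0.12). Whether the slopes of precursor and mature genes differ was not tested.

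Myelin genes that did not pass are part of the picture. The 32 list members outside the score had a median slope of 0.43, 30 of them were positive and 23 had a positive slope at an unadjusted limma p below 0.05. Over all genes the median was -0.002, with 49% positive and 3.15% positive at that p. Tmem88b lay closest to the threshold (slope 0.64, SE 0.14, adjusted limma p = 0.067). Tppp, a tubulin-binding protein of oligodendrocytes, had -0.10 (SE 0.09), Apod -0.01 (SE 0.16), and Nfasc, which neurons also express, 0.07 (SE 0.09).

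**Figure D5:**
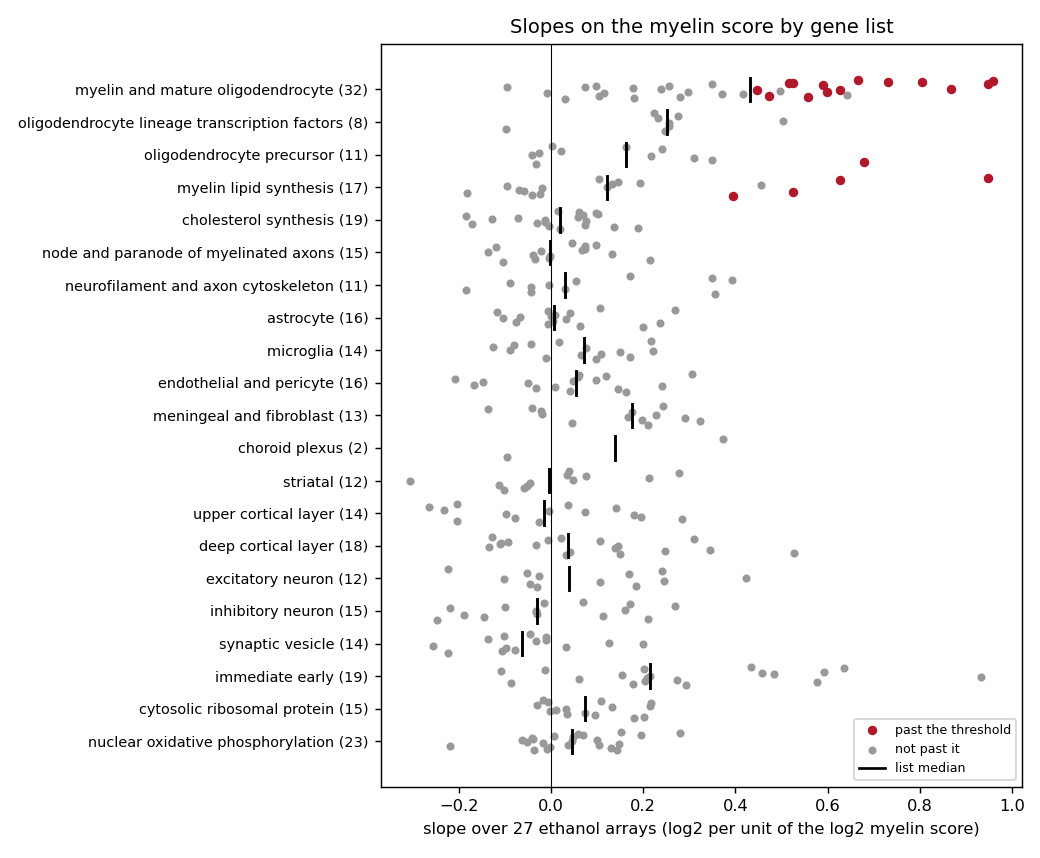
Slopes on the myelin score over 27 ethanol BXD arrays (log2 per unit of the log2 score) for the members of each gene list, with the number of members tested in brackets; red points passed the threshold, grey points did not, and black lines are list medians. The myelin list has a median of 0.43, and red points occur on the myelin, precursor and lipid lists.

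Cholesterol is a major lipid of myelin, and its synthesis genes stayed near 0. Of 19 measured genes 0 passed, against 0.144% of all genes, and 11 had a positive slope, against 49%. The median slope was 0.02, against -0.002 over all genes. In saline the median difference between the sets was -0.004. Genes of the node and paranode, the axonal contacts of the sheath, had a median slope of -0.002 over 15 genes. Of these 0 passed, against 0.144% of all genes, and 7 had a positive slope, against 49%. Kcna1, the juxtaparanodal potassium channel, ran from 9.89 to 10.21 in the saline high set (median 10.05) and from 9.75 to 10.04 in the low set (median 9.84), with a slope of 0.13 (SE 0.08). Among 11 axonal cytoskeleton genes 0 passed, against 0.144% of all genes, and 6 had a positive slope, against 49% of all genes. Of these, 4 had an unadjusted limma p below 0.05, against 3.15% of all genes, namely Nefm, Nefh, Nefl and Vamp1. Nefm, the medium neurofilament subunit, differed by 0.26 in saline and 0.27 (SE 0.07, adjusted limma p = 0.67) in ethanol. Nefl, the light subunit, differed by 0.13 and 0.17. Nefh had a slope of 0.39 (SE 0.15) and Vamp1, a synaptobrevin of fast-firing neurons, 0.36 (SE 0.14).

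Markers of cortical depth and of other cells were set beside these results. Excitatory neuron genes were measured for 12 of 14, deep-layer genes for 18 of 19 and upper-layer genes for 14 of 15, and 2 of 10 choroid plexus genes passed the filter. Deep-layer genes had a positive high minus low difference for 15 of 18 in saline (median 0.10), against 58.4% of all genes. In ethanol 14 of 18 were positive (median 0.06), against 42.6%. The mean level of that list ran from 7.93 to 8.11 in the saline high arrays and from 7.82 to 7.99 in the low arrays. In the ethanol arrays it ran from 7.96 to 8.10 and from 7.83 to 8.13, so the sets overlapped in both treatments. Tle4, a deep-layer repressor, differed by 0.21 in saline and 0.12 (SE 0.08) in ethanol. Upper-layer genes had median differences of -0.009 in saline and 0.006 in ethanol. The part of these markers in the myelin differences was not tested.

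Genes of the meninges pointed the other way, with 1 of 13 positive in saline (median -0.10), against 58.4% of all genes. In ethanol 2 of 13 were positive (median -0.09), against 42.6%. Their slope on the score, however, had a positive median of 0.18. The mean level of the list ran from 7.46 to 7.78 in the saline high arrays and from 7.43 to 8.11 in the low arrays. Col3a1, a fibrillar collagen, had the largest saline difference of that list at -0.58. Microglial genes were positive for 2 of 14 in both treatments (medians -0.04 and -0.05), against the same shares of all genes. Their list means were 7.98 to 8.12 in the saline high arrays and 7.98 to 8.43 in the low arrays. Astrocyte genes had median differences of -0.002 in saline and -0.04 in ethanol over 16 genes. Aqp4 had a slope of 0.11 (SE 0.10) and Gfap 0.27 (SE 0.27). Endothelial genes had a median slope of 0.05 and striatal genes of -0.005, with Drd2 at 0.28 (SE 0.13, adjusted limma p = 0.82). None of the genes on these lists passed, against 0.144% of all genes. The part of meningeal and microglial RNA in the myelin differences was not tested.

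Neuronal and housekeeping lists held 0 genes past the threshold, against 0.144% of all genes. Excitatory neuron genes had a median slope of 0.04, inhibitory neuron genes -0.03 and synaptic vesicle genes -0.06, where Sv2b had -0.26 (SE 0.08, adjusted limma p = 0.57). Ribosomal protein genes had a median of 0.08 and nuclear oxidative phosphorylation genes 0.05. The latter had a positive saline difference for 20 of 23 genes (median 0.05), against 58.4% of all genes. In ethanol 8 of 23 were positive (median -0.01), against 42.6%. Immediate early genes, which neurons induce within minutes of activity, had a positive slope for 16 of 19 (median 0.22), against 49% of all genes. Of these, 5 had an unadjusted limma p below 0.05, against 3.15% of all genes, and 0 passed. Arc had the steepest slope of that list at 0.93 (SE 0.42) and Fos had 0.64 (SE 0.28). Npas4 had 0.44 (SE 0.23, adjusted limma p = 0.85). The mean of the list ran from 8.28 to 8.96 in the ethanol high arrays and from 7.99 to 8.94 in the low arrays, so the sets overlapped.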

How the data were processed

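Log2 expression values of 45037 Affymetrix probe sets on 66 arrays were used as deposited. Per the submitters' processing notes the authors used affy with RMA, without stated versions. RMA makes the value distributions of arrays alike, so levels are relative. Array medians ran from 5.67 to 5.77 and SDs from 2.06 to 2.17. The closest 2 arrays correlated at 0.998, and all were kept as separate samples. Array number limits the precision. The labels state random batches, and the batch of an array was not used here.

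Probe sets with 1 gene symbol (34945, against 932 with several and 9160 with none) and a mean above the 40th percentile (log2 5.10) were kept, and the brightest stood for each of 13196 genes. Symbols were updated through RefSeq. Models used limma 3.58.1 in R 4.3.3 (lmFit, eBayes, two-sided, Benjamini-Hochberg over all genes, threshold 0.05), checked on simulated data, and permutation tests used scipy 1.17.1. The saline contrast chose the strains and was not tested. Nothing says that progenitor replicates were separate cohorts, so their p-values measure the spread between pools. Alternatives varied the filter, probe sets, scaling, model, score genes, set size and strains.

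Named were the 5 score genes, list members with the smallest p, saline genes without overlap, the 3 smallest p in each direction of the ethanol contrast, genes past the threshold and a fixed set of lineage and cell type genes. Tmem88b, Tppp, Apod, Nfasc, Nefl, Col3a1, Arc and Fos were chosen after their values were seen. The strain sets and gene lists were chosen with earlier results of these data known.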

Additional observations from a re-analysis of the deposited data

Results flagged for a closer look

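Of 52 groups of 9 arrays examined for a value far from the rest, 1 stood apart, and chance alone marks about 1 in 20 such groups. Opalin in the ethanol arrays of the low strains was 6.20 in BXD02, while the nearest strain was at 6.59 and the highest at 6.93. BXD02 also had the lowest ethanol score, -0.48. Without any 1 strain the slope of Opalin on the score stayed between 0.67 and 0.77 and passed in 27 of 27 fits.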

How the results depend on the processing

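The difference of the ethanol score between the sets ran from 0.34 to 0.43 when 1 strain was left out, the correlation of saline and ethanol scores from 0.60 to 0.68, and the progenitor difference from -0.79 to -0.69. These 3 results kept their direction and their side of the threshold under every alternative run. With 1 probe set per gene, genes following the score numbered 14 to 21 under the other filters, scalings, trend and robust fit, array weights and array SD, and 13 with the saline score as a second covariate. When all probe sets were tested 27 of them passed. Leaving out 1 strain gave 16 to 21 genes, and the score of the other myelin genes gave 5, since that list then leaves the test. The count of genes between the sets in the ethanol arrays was 0 in every fit without 1 strain and 4 against the saline score over 27 strains. With all probe sets 5 probe sets passed, all of Mbp and Mobp. Within the progenitor groups array weights gave 16 genes (4 positive, 12 negative, and none of the 19 genes), and leaving out 1 array gave 0 to 4, with 4 without DBA/2J saline replicate 2. The causes were not tested.

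The slope of Pdgfra, close to 0, turned to -0.010 with repeated quantile normalization, -0.012 with the array SD, -0.002 with the score of other myelin genes, -0.036 with Cnp alone and -0.016 with the saline score as a second covariate, where Kcna1 turned to -0.003. The last 2 settings were chosen after seeing the data. A planned score of 2 genes was not run. With the replicate block, the progenitor score difference was -0.735 (exact permutation p = 0.031, the smallest that this paired test can give). With that block 0 genes followed the score within the progenitor groups. The progenitor numbers are shared labels only, and no other call changed with the block.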
